A study of Capra hircus with 3 samples.

Results

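The genes described here regulate lipid synthesis in the lactating mammary gland of Laoshan dairy goats. A list of 10 such regulators was matched to the deposited loci by goat NCBI gene ID, and values for 5 of them were analysed, out of 13023 protein-coding genes. These were SCAP, INSIG1, INSIG2, NR1H3 and THRSP, with 1 locus each. SREBF1, SREBF2, PPARA, PPARG and MLXIPL are not analysed here. Mammary gland tissue of 5 healthy goats of the Laoshan breed, all in the third lactation, was taken by surgery in early, peak and late lactation, at 10, 90 and 210 days after parturition. The goats received no treatment other than anaesthesia for sampling. For each stage, RNA from all 5 animals went into a common pool and 1 library, so the 3 libraries carry no measure of the spread between animals. No test was therefore made, no p-value is given, and every difference between stages lacks a replicate check. Values are FPKM, fragments of a transcript divided by the transcript's length and by the mapped reads of its library, and a pair of libraries is said to differ in a gene when the ratio of the FPKM was at least 2-fold.

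Sterol regulatory element-binding proteins (SREBPs) are transcription factors made as membrane proteins of the endoplasmic reticulum. SCAP escorts them to the Golgi, where proteases release the active part, which switches on genes of cholesterol and fatty acid synthesis. INSIG1 and INSIG2 bind SCAP when sterols are plentiful and hold the complex back, and INSIG1 is itself a target gene of the SREBPs. NR1H3 encodes liver X receptor alpha, a nuclear receptor for oxidised sterols that raises cholesterol efflux genes and is abundant in macrophages. THRSP, also named Spot 14, is a small protein induced by thyroid hormone and carbohydrate that promotes fatty acid synthesis in liver, fat and mammary gland.

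Libraries are named by their label. For annotated lncRNA genes, most ratios of the late-labelled over the peak-labelled library ran opposite in direction to those in the study's own table of lncRNA transcripts, so which of these stages a value belongs to is uncertain. With the columns exchanged, every statement below on the peak library passes to the late one and the reverse, and every late over peak ratio, of regulators, lists and markers alike, changes sign. The library labelled peak lactation also stood apart in milk genes. CSN3, the kappa-casein gene, had 25445 FPKM in the early library, 3989 in the peak library and 27391 in the late library, and ELF5, a transcription factor of the secretory epithelium, had 879, 244 and 875 FPKM. LALBA, the alpha-lactalbumin gene, was listed at 0 in the late library and at 70053 FPKM in the early library, so a listed 0 is not read as absence. The median log2 ratio of protein-coding genes was 0.01 for peak over early, -0.03 for late over early and -0.02 for late over peak lactation. One unannotated locus held 46.0% of all FPKM in the peak library and 30.0% and 29.9% in the early and late libraries. Scaling each library to its sum without that locus adds 0.52 to every log2 ratio of peak over early, adds 0.13 to those of late over early and takes ratios of late over peak lactation down, by -0.39.

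INSIG1 was the most abundant of the 5 regulators in every library, and it was more than 2-fold higher in the late library than in either other library. Its FPKM was 107 in the early, 105 in the peak and 256 in the late library. The early and peak values lay 1.02-fold apart, while the late value was 2.39-fold above the early one (log2 ratio 1.26) and 2.44-fold above the peak one (log2 ratio 1.28). In the early library 97.8% of protein-coding genes were lower than INSIG1, and in the late library 99.1% were. Scaled without the most abundant locus, INSIG1 was 0.89 above the peak library on the log2 scale and no longer 2-fold apart. With the peak and late columns exchanged, the high value belongs to peak lactation, and the ratio of late over peak turns to -1.28.

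Of 12777 protein-coding genes above 0 in both the early and the late library, 1.64% were at least 2-fold higher in the late one, and 1.01% were as high in this ratio as INSIG1 or higher. Among genes of similar abundance, with a mean of 50 to 500 FPKM, such a difference was found for 3 of 626 genes, a share of 0.479%. In late over peak lactation, by contrast, 8.57% of all protein-coding genes and 22.7% of those in that range were at least 2-fold higher in the late library. The 3 genes past 2-fold in late over early lactation were INSIG1 and, named after their values were seen, PPM1F, a protein phosphatase, and DNAJC12, a heat shock protein co-chaperone. PPM1F had 43.7, 96.2 and 134 FPKM in the early, peak and late libraries, so it was already higher in the peak library. DNAJC12 had 161, 53.7 and 353 FPKM, so it was lower there. INSIG1, with similar early and peak values, had neither profile.

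INSIG2, the second sterol-sensing anchor of SCAP, was far lower than INSIG1 and varied little. Its FPKM was 8.02, 7.80 and 9.90 in the early, peak and late libraries, so that the late value was 1.24-fold above the early and 1.27-fold above the peak one, both under the 2-fold limit. INSIG1 exceeded INSIG2 by 13.4-fold in the early library, 13.5-fold in the peak library and 25.9-fold in the late library, as ratios of FPKM within a library. Both INSIG genes were highest in the late library as deposited. For INSIG2 the late over peak log2 ratio of 0.34 turned to -0.05 when scaled without the most abundant locus, and to -0.34 with the columns exchanged.

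SCAP, the escort protein itself, showed the opposite order of libraries with small differences. It had 5.95 FPKM in the early, 6.75 in the peak and 4.82 in the late library, and its widest ratio as deposited was 1.40-fold, late below peak (log2 ratio -0.49). Scaled without the most abundant locus, this log2 ratio was -0.88, and that of peak over early went from 0.18 to 0.70, both still under 2-fold. Set against SCAP, the summed FPKM of INSIG1 and INSIG2 was 19.4 times as high in the early library, 16.7 times in the peak library and 55.2 times in the late library. Most of this difference lay with INSIG1, since the ratio of INSIG2 to SCAP ran only from 1.16 to 2.05. These are ratios of RNA per transcript length and say nothing of protein.

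**Figure D1:**
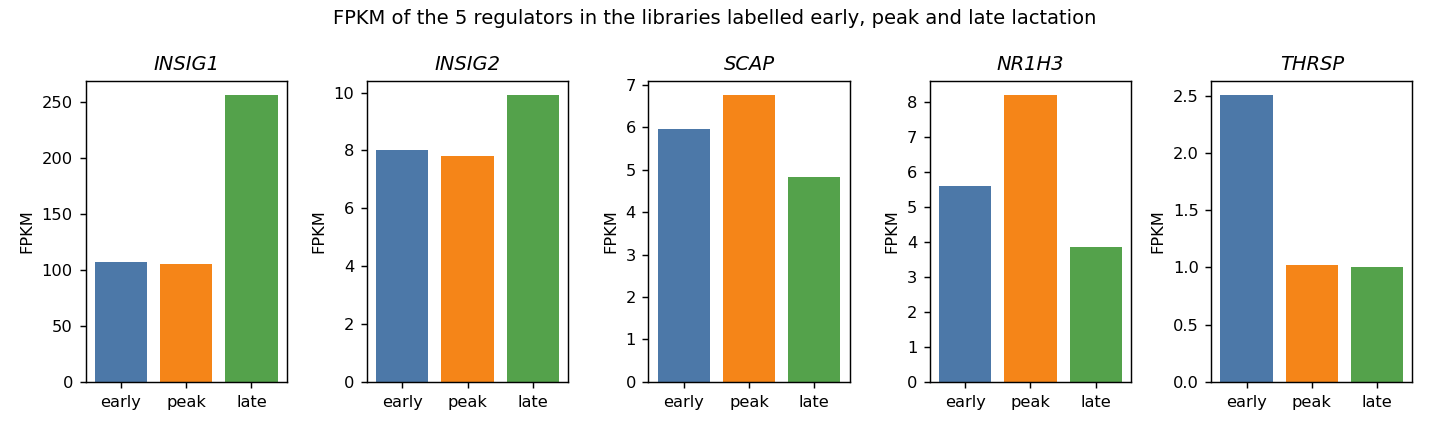
FPKM of each regulator (y axis, from 0, a separate scale per gene) by stage label, early, peak and late (x axis), with 1 pooled library per bar and no error bars because there are no replicates. INSIG1 stands at 256 FPKM in the late library against 107 and 105, NR1H3 is highest in the peak library at 8.20 and THRSP is highest in the early library at 2.50.

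Genes of the other proteins that process or degrade the SREBP complex lay within 2-fold as deposited. All 13 listed genes were measured, and 0 of 13 passed 2-fold in any of the 3 comparisons. Among all protein-coding genes 17.2% did in peak over early, 7.08% in late over early and 24.7% in late over peak lactation. Scaled without the most abundant locus, 1 was at least 2-fold higher in the peak than in the early library and 2 were lower in the late than in the peak library. MBTPS2, which encodes the second of the proteases that release SREBPs, had 4.96, 4.75 and 7.25 FPKM in the early, peak and late libraries, the highest late over early ratio of the list at 0.55 on the log2 scale. PAQR3, a Golgi anchor of the SCAP complex, had 1.25, 2.42 and 1.42 FPKM, with a log2 ratio of 0.95 for peak over early. ERLIN2, which takes part in the degradation of endoplasmic reticulum proteins, had 21.8, 12.5 and 22.7 FPKM. The most abundant was HSP90B1, a chaperone of the endoplasmic reticulum, with 152, 170 and 167 FPKM. The list median was -0.06 for peak over early and 0.21 for late over peak lactation, and both change sign when scaled without the most abundant locus.

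Genes of cholesterol synthesis and uptake, which SREBPs control, were together higher in the late library. Of the 20 measured of 23 listed, 15 were at least 2-fold higher in the late than in the peak library and 0 were lower by that margin, while 8.57% of all 12807 protein-coding genes were higher and 16.2% lower. Their median log2 ratio was 1.23. Scaled without the most abundant locus it became 0.83, with 6 genes at least 2-fold higher, 1 at least 2-fold lower and 18 of 20 above 0. MSMO1, a sterol demethylation enzyme, had the highest ratio, with 68.2, 41.2 and 123 FPKM in the early, peak and late libraries. ACAT2, a thiolase at the start of the pathway, was the one gene that was lower in late than in peak lactation as deposited, with 3.20, 5.43 and 3.25 FPKM.

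Between early and late lactation the differences in this list were mostly smaller than that of INSIG1. All 20 genes were higher in the late library, with a median log2 ratio of 0.47, but 1 passed 2-fold. That was TM7SF2, a sterol reductase, with 17.2, 14.5 and 40.3 FPKM and a log2 ratio of 1.23, close to the 1.26 of INSIG1. Between early and peak lactation the list and INSIG1 parted. INSIG1 had a log2 ratio of -0.02, while 18 of the 20 genes were lower in the peak library, with a median of -0.62. Of these, 3 were at least 2-fold lower, against 6.69% of 12937 protein-coding genes, and none of the 20 were 2-fold lower when scaled without the most abundant locus. PMVK, a kinase of the mevalonate pathway, was the lowest at -1.07, with 11.6 FPKM in the early and 5.53 in the peak library. With the peak and late columns exchanged, the higher sterol gene levels belong to peak lactation.

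NR1H3 was highest in the peak library and lowest in the late library. Its FPKM was 5.60 in the early, 8.20 in the peak and 3.86 in the late library. The late value was 2.13-fold below the peak value (log2 ratio -1.09), and the early value lay between, 1.47-fold below the peak and 1.45-fold above the late value. Among all protein-coding genes 14.7% had a late over peak ratio as low or lower, and 20.3% of those with a mean of 1 to 10 FPKM were at least 2-fold lower, so the size of this ratio was common between these libraries. With 1 FPKM added to both values the log2 ratio was -0.92. Scaled without the most abundant locus, NR1H3 was 1.07 higher in the peak than in the early library on the log2 scale, which passes 2-fold, and with the columns exchanged its late over peak ratio turns to 1.09.

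Target genes of liver X receptors showed the same order of libraries in 6 of the 8 measured genes of 9 listed. Of the 8, 6 were at least 2-fold lower in the late than in the peak library and 5 were at least 2-fold higher in the peak than in the early library, against 16.2% and 10.5% of all protein-coding genes. The list medians were -1.92 and 1.11 on the log2 scale, and they kept their sign under every scaling tried. APOE, a lipoprotein component that carries cholesterol, was the most abundant, with 56.7, 132 and 34.6 FPKM in the early, peak and late libraries. ABCA1, the transporter that loads cholesterol onto apolipoproteins, had 6.88, 14.8 and 3.38 FPKM, a late over peak log2 ratio of -2.13. ABCG1, a second sterol exporter, had 2.22, 4.99 and 0.789 FPKM. MYLIP, a ubiquitin ligase that degrades the LDL receptor, had 8.78, 19.1 and 6.57 FPKM. LPCAT3, which remodels phospholipids, ran the other way at 9.06, 5.90 and 8.55 FPKM, and SMPDL3A, a phosphodiesterase, was highest in the early library at 1.66 FPKM. Apart from ABCA1, APOE and LPCAT3, these targets are named after their values were seen.

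The summed levels of immune cell markers had the same order of libraries as NR1H3 and these targets. This order of sums was not particular to immune cells, but elsewhere it spanned a narrower range and did not hold gene by gene. Myoepithelial markers summed to 208, 216 and 192 FPKM in the early, peak and late libraries. Of these 6 markers, 3 were higher and 3 lower in the peak than in the early library. The luminal genes KRT8, KRT18, KRT19, EPCAM and CDH1, picked after their values were seen, summed to 698, 740 and 650 FPKM. Among them, KRT19 and EPCAM were highest in the early library, and the full luminal list did not have this order. Of 9 listed macrophage markers 8 were measured, and their summed FPKM was 175 in the early, 294 in the peak and 93.9 in the late library. All 8 were lower in the late than in the peak library, 5 of them at least 2-fold, against 16.2% of all protein-coding genes, and none were listed at 0. Between early and peak lactation 7 of the 8 were higher in the peak library and 0 passed 2-fold, against 10.5% of all protein-coding genes. Scaled without the most abundant locus, 5 were at least 2-fold higher in the peak library. MSR1 was lower there, with 9.95, 6.64 and 6.45 FPKM, and CD14 hardly differed, with 12.4, 12.5 and 11.3 FPKM. Most of the sum lay with complement components made by macrophages. C1QA had 58.5, 107 and 28.4 FPKM, C1QB 29.2, 54.3 and 12.9 FPKM, and C1QC 36.0, 70.6 and 19.6 FPKM. The summed FPKM of 5 lymphocyte markers was 21.5, 57.1 and 11.8, with CD3E listed at 0 in the early and peak libraries. Their part in the NR1H3 result was not tested. In such bulk tissue, fewer cells of a type and less RNA per cell cannot be told apart.

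**Figure D2:**
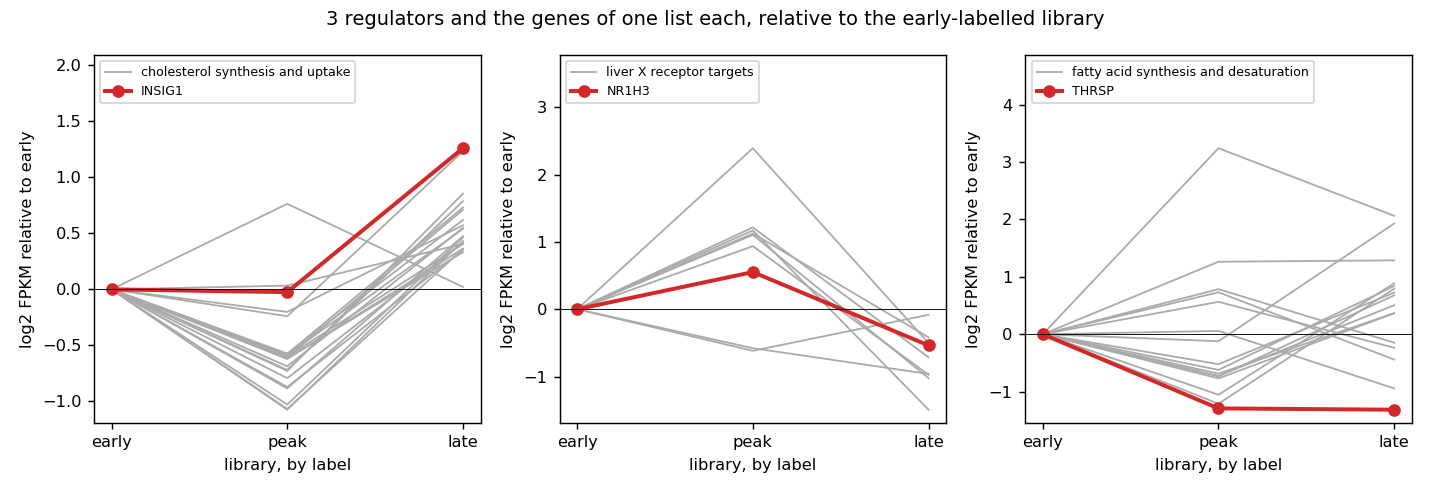
Log2 FPKM relative to the early library (y axis) in the libraries by label (x axis), with a regulator in red and each gene of a list in grey, for INSIG1 with cholesterol synthesis and uptake, NR1H3 with liver X receptor targets and THRSP with fatty acid synthesis and desaturation. INSIG1 ends at 1.26 with TM7SF2 at 1.23 as the nearest grey line, NR1H3 peaks at 0.55 below most of its targets, and THRSP lies at -1.29 and -1.31 while 11 of 15 synthesis genes lie above 0 in the late library.

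THRSP was the lowest of the 5 regulators in every library and was highest in early lactation. It had 2.50 FPKM in the early, 1.02 in the peak and 1.01 in the late library. The log2 ratios to the early library were -1.29 in the peak and -1.31 in the late library, and the peak and late values lay 1.02-fold apart, so with these columns exchanged both ratios to the early library stay past 2-fold. Among all protein-coding genes 6.69% were at least 2-fold lower in the peak than in the early library and 5.44% in the late than in the early library, and among those with a mean of 1 to 10 FPKM the shares were 4.87% and 6.05%. A late over early ratio as low as that of THRSP or lower was found for 3.08% of all protein-coding genes. In the peak library 6.63% of protein-coding genes were lower than THRSP. With 1 FPKM added to both values neither ratio passed 2-fold, at -0.79 for peak over early and -0.80 for late over early, and scaled without the most abundant locus peak over early was -0.77.

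Genes of fatty acid synthesis and desaturation were mostly high in the late library, where THRSP was low. All 15 listed genes were measured. In late over early lactation 11 were higher, with a median log2 ratio of 0.68. At least 2-fold higher were 3 and lower 0, against 1.64% and 5.44% of all protein-coding genes. Of these 3, FADS2 had 0.220 FPKM in the early and 0.919 in the late library, and ME1 had 0.996 and 2.43. Both were under 1 FPKM in the early library, and the remaining gene was PNPLA3. FASN, the fatty acid synthase, had the highest mean over the libraries, with 1175, 508 and 2036 FPKM in the early, peak and late libraries, while THRSP was at its lowest in the late one. PNPLA3, a lipase and acyltransferase regulated by SREBP-1 in liver, had the highest late over early log2 ratio among genes of at least 1 FPKM, 1.93, with 17.7, 16.2 and 67.2 FPKM, and like INSIG1 had similar early and peak values and a high late value. ACACA, acetyl-CoA carboxylase, had 106, 51.1 and 196 FPKM. SCD5, a desaturase, had the lowest late over early ratio among genes above 1 FPKM, -0.94, with 9.51, 9.90 and 4.95 FPKM. Between peak and late lactation 9 of the 15 were at least 2-fold higher in the late library and 3 lower, against 8.57% and 16.2% of all protein-coding genes. These counts became 5 and 5 when scaled without the most abundant locus.

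MID1IP1, the paralog of THRSP, differed from it. It had 4.92 FPKM in both the early and the peak library and 7.51 FPKM in the late library, a late over early log2 ratio of 0.61 against -1.31 for THRSP. THRB, a thyroid hormone receptor, had 23.0, 10.8 and 25.3 FPKM, and was 2.13-fold lower in the peak than in the early library. MLXIP, a glucose-sensing partner of MLX, had 3.73, 6.30 and 2.92 FPKM and was 2.16-fold lower in the late than in the peak library. Over the 8 genes of this partner list, MLX had the highest mean, with 31.0, 21.4 and 31.5 FPKM. In peak over early 1 of the 8 was at least 2-fold lower, against a background share of 6.69%. In late over early 0 of the 8 passed 2-fold either way, against a background share of 7.08%. Both shares are of all protein-coding genes, and counts in 8 genes are too small to set the list apart from them. The median of this list lay between -0.08 and 0.28 in the 3 comparisons and changed sign with the scaling.

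The summed level of fat cell markers was highest in the early library, as THRSP was, but so was that of fibroblast markers. Of 8 adipocyte markers 6 were measured, with a summed FPKM of 45.8 in the early, 27.8 in the peak and 31.9 in the late library. ADIPOQ, the adiponectin gene, had 15.1, 4.10 and 5.69 FPKM. PLIN1, a lipid droplet protein of adipocytes, had 1.28, 0.836 and 0.468 FPKM, and PLIN4 was listed at 0 in the late library. Of the 6 markers, 1 was at least 2-fold lower in the peak than in the early library, against 6.69% of all protein-coding genes. Of the 5 above 0 in the late library, 3 were at least 2-fold lower there than in the early one, against 5.44%. CFD lay between 19.4 and 23.8 FPKM and LIPE was highest in the late library. Fibroblast markers summed to 664, 549 and 542 FPKM in the early, peak and late libraries. This sum had the order of THRSP, but the single genes did not. All 6 were lower in the late than in the early library. However, 2 were higher in the peak than in the early library, and 4 were higher in the late than in the peak library. Luminal markers summed to 122133, 32204 and 68361 FPKM. LALBA held 70053 FPKM of the early sum and was listed at 0 in the late library. The early rank of the luminal sum therefore rests on LALBA and is not read as a likeness to THRSP. Whether fat cells or other cell types took part in the THRSP values was not tested.

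**Figure D3:**
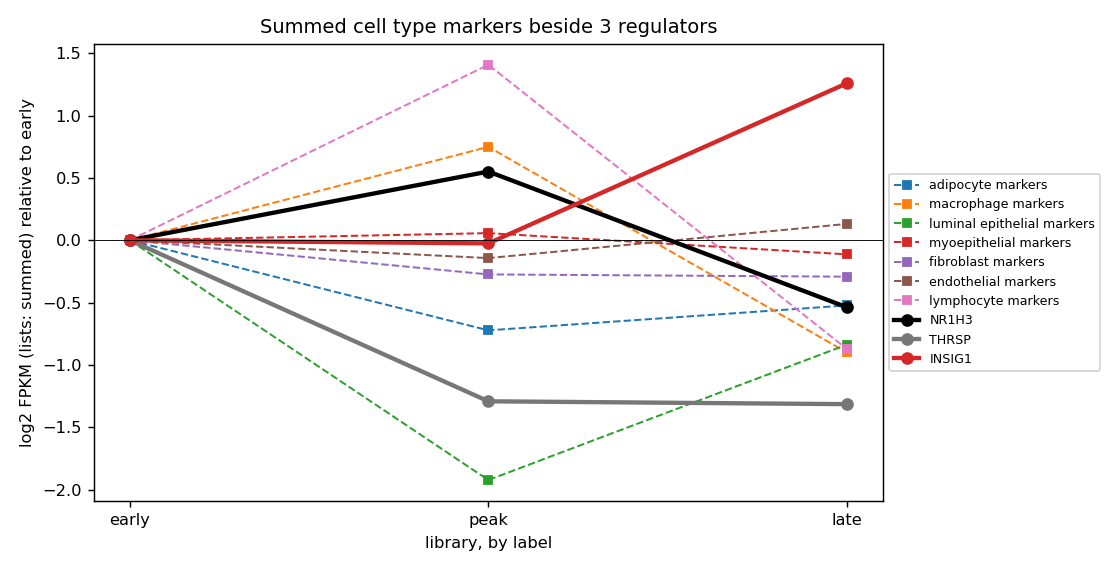
Summed FPKM of each cell type marker list (dashed) and FPKM of NR1H3, THRSP and INSIG1 (solid), all as log2 relative to the early library (y axis), in the libraries by label (x axis). Macrophage and lymphocyte markers lie above the early level in the peak library and below it in the late library, as NR1H3 does. Myoepithelial markers have the same order over a narrower range. No list follows INSIG1 to 1.26. LALBA is listed at 0 in the late library, which lowers the luminal sum there.

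Nuclear receptor partners and coregulators mostly lay within 2-fold, with a few larger differences. Of 16 listed genes 15 were measured, and 4 were at least 2-fold lower in the peak than in the early library and 0 higher, against 6.69% and 10.5% of all protein-coding genes. Scaled without the most abundant locus, 1 was lower and 1 higher. LPIN1, a phosphatidate phosphatase that also acts as a coactivator of PPAR-alpha, had the highest mean, with 95.1, 21.8 and 101 FPKM, so it was 4.61-fold higher in the late than in the peak library. RXRA, the partner with which liver X receptors and PPARs bind DNA, had 3.45 FPKM in the early and 0.984 FPKM in the late library with the peak value between them, an order that NR1H3 did not share. NR1H2, the liver X receptor beta gene and the close relative of NR1H3, had 14.9, 12.5 and 14.7 FPKM, so it was above NR1H3 in every library and varied less. RXRA and NR1H2 are named after their values were seen. The median of this list was -0.25 for peak over early and 0.23 for late over peak lactation, and both changed sign when scaled without the most abundant locus.

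Genes of fatty acid uptake and triglyceride assembly, many of them targets of PPAR-gamma, were lower in the peak library as a group. Of the 13 measured of 14 listed, 11 were at least 2-fold lower in the peak than in the early library, against 6.69% of all protein-coding genes, and 8 were when scaled without the most abundant locus. GPAM, the mitochondrial glycerol-phosphate acyltransferase, had 591, 105 and 674 FPKM in the early, peak and late libraries. BTN1A1, butyrophilin of the milk fat globule, had the highest mean, with 2940, 1241 and 3788 FPKM. LPL, lipoprotein lipase, had 683, 269 and 1145 FPKM. None of the 5 regulators had this profile, with a low peak value and similar early and late values.

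Genes of fatty acid oxidation, where PPAR-alpha acts, were mostly a little lower in the late library. Of 13 measured of 16 listed, 12 were lower in the late than in the early library, with a median log2 ratio of -0.34. At least 2-fold lower were 2 of them, against 5.44% of all protein-coding genes. PDK4, a kinase that restrains glucose oxidation, had 30.1, 21.1 and 12.1 FPKM. CPT1A, which admits fatty acids to mitochondria, had 6.63, 13.0 and 2.73 FPKM, the same order of libraries as NR1H3. Target genes of carbohydrate-response factors shared this order in 4 of 5 measured of 8 listed. How many of all protein-coding genes have this order was not counted. TXNIP, an inhibitor of glucose uptake, was the most abundant at 322, 491 and 237 FPKM. KLF10, a transcriptional repressor, had 2.66, 7.39 and 1.04 FPKM. GPD1, glycerol-3-phosphate dehydrogenase, was the exception at 10.9, 4.77 and 7.66 FPKM.

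**Figure D4:**
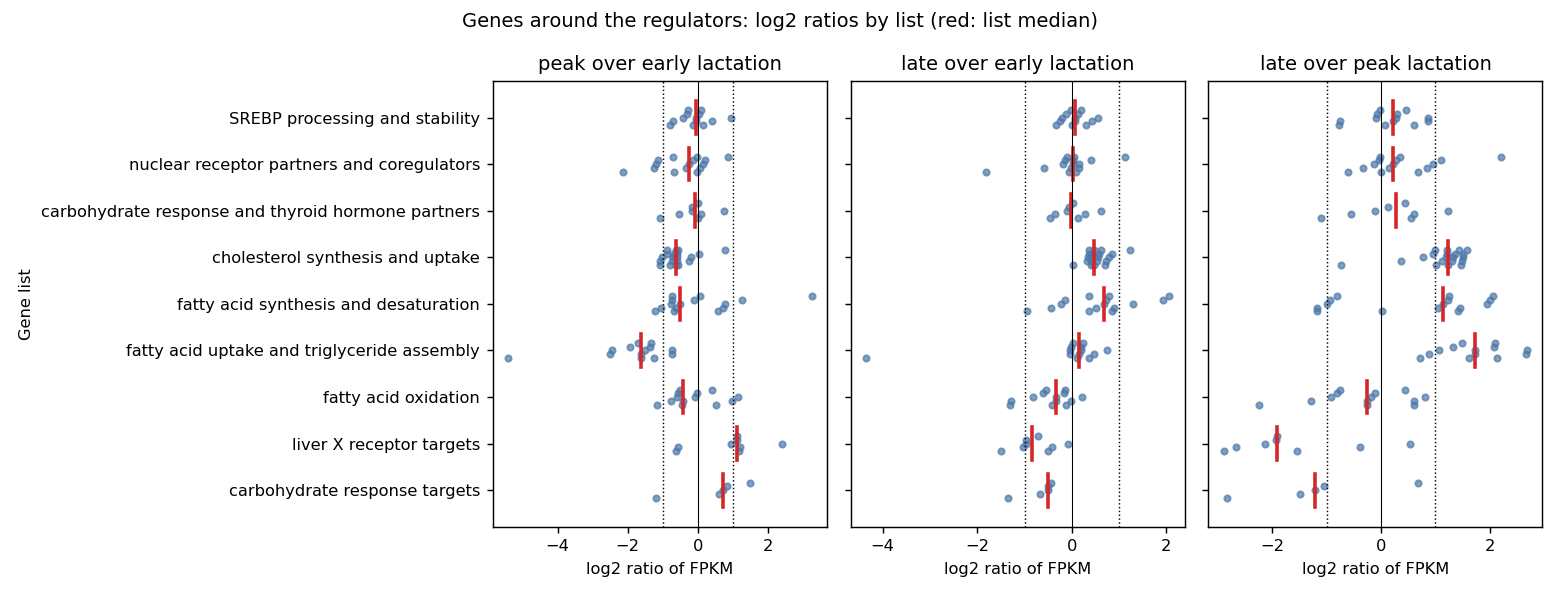
Log2 ratio of FPKM (x axis) of every measured gene (points) in each gene list (y axis), in the 3 comparisons between libraries by label, with list medians as red lines and 2-fold limits as dotted lines. Late over peak lactation separates the sterol and fatty acid lists, with medians of 1.23, 1.13 and 1.73, from the liver X receptor and carbohydrate response targets, with medians of -1.92 and -1.21.

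The 9 gene lists together held 122 genes, of which 110 were measured. Between peak and late lactation 54 of them differed at least 2-fold, 38 higher in the late library and 16 lower, when 24.7% of all protein-coding genes did. Scaled without the most abundant locus, the split was 21 higher and 25 lower, and without the 100 most abundant loci it was 32 and 18. Between early and peak lactation 32 did, 9 higher in the peak library and 23 lower, against 17.2% of all protein-coding genes. These splits became 22 and 9 without the most abundant locus and 14 and 16 without the 100 most abundant loci. Between early and late lactation 12 did, 5 higher and 7 lower, against 7.08% of all protein-coding genes. Of the 5 regulators, 1 differed between early and peak lactation (THRSP, lower), 2 between early and late (INSIG1 higher, THRSP lower) and 2 between peak and late (INSIG1 higher, NR1H3 lower). The comparisons share libraries and are not independent.

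**Figure D5:**
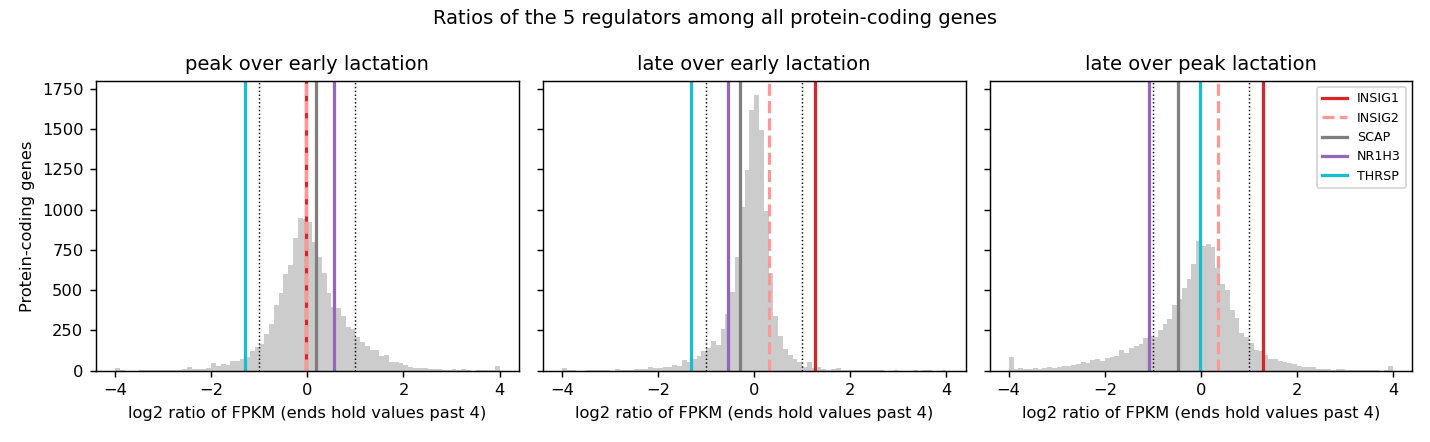
Histograms of the log2 ratio of FPKM (x axis; the end bins also hold values past 4) over all protein-coding genes (y axis, number of genes) for the 3 comparisons by label, with the 5 regulators as vertical lines and the 2-fold limits dotted. INSIG1 at 1.26 lies in the sparse right tail of late over early lactation, where 1.01% of genes are as high, while at 1.28 in late over peak lactation 5.47% of genes are as high.

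The regulators lie on separate scaffolds, given here as deposited for an assembly that the values do not name. INSIG1 lies on scaffold NW_005100657.1 from 3817931 to 3828607, INSIG2 on NW_005100621.1 from 1290302 to 1302639, and SCAP on NW_005100911.1 from 31215650 to 31310329. NR1H3 lies on NW_005100830.1 from 6600697 to 6607698 and THRSP on NW_005100972.1 from 3637643 to 3642821. None of the 5 loci overlapped another listed locus. Positions of exons, introns and UTRs were not used here.

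Loci around INSIG1 were higher in the late than in the peak library along with it. Within 10 kb of INSIG1 were 4 further loci, 3 without a gene ID and LOC106502073, and all 4 were at least 2-fold higher in the late than in the peak library, as 19.8% of loci without a gene ID were. Between early and late lactation 3 of the 4 were, against 12.5% of loci without a gene ID, and XLOC_008835 had 1.44 FPKM in the early and 1.45 FPKM in the late library. For peak over early, XLOC_008833 and XLOC_008835 had log2 ratios of -1.49 and -1.18, where INSIG1 had -0.02. XLOC_008834 and LOC106502073 had 0.04 and 0.13. LOC106502073, 8243 nt to the right of INSIG1, had 0.653, 0.714 and 4.83 FPKM in the early, peak and late libraries. The 3 loci on the left had at most 2.02 FPKM in any library. Values this low rest on few fragments, and whether they are parts of the INSIG1 transcript was not tested. Around the other regulators this was not seen, with 1 of 6 loci near INSIG2 and 0 of 3, 0 of 5 and 0 of 1 near SCAP, NR1H3 and THRSP at least 2-fold higher in late than in peak lactation. NDUFC2, a respiratory chain gene 840 nt from THRSP, had 90.7, 51.1 and 89.9 FPKM and did not share its low late value.

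Among 7978 other protein-coding genes with a mean of at least 5 FPKM, the most similar profiles were found by the distance between log2 values centred over the 3 libraries. Nearest to INSIG1 were CRIP3 at a distance of 0.08, TM7SF2 at 0.17 and EPB41L3 at 0.20. CRIP3 had 3.31, 3.46 and 8.50 FPKM, and TM7SF2 is the sterol reductase described above. Nearest to NR1H3 were PREX1, FAM60A and ANGPTL2 at distances of 0.02, and nearest to THRSP were SIK1 at 0.15, ASPA at 0.18 and CTH at 0.23. SIK1, a salt-inducible kinase, had 19.8, 9.28 and 8.99 FPKM. With 3 libraries many genes share a profile, so these distances describe likeness and no more.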

How the data were processed

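Stranded RNA-seq was made from 15 mammary samples of 5 Laoshan goats, pooled by stage. Per the submitters' processing notes and the study's methods, reads were trimmed (Trimmomatic), mapped (TopHat2 2.0.9) and assembled (Cufflinks 2.1.1), and transcripts were merged (Cuffmerge) and quantified (Cuffdiff). The FPKM values that the authors deposited for 50041 loci, in 1 column per library matched to its stage by the sample labels, were the only values used. Read numbers per locus are unknown, so no interval is given. Between 46.6% and 52.0% of the values end in the digit 5. Among values of at least 7 digits the share was 95.9% in the early, 99.4% in the peak and 97.3% in the late library. The study's sources do not say how the columns were averaged, if they were.

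Of 15161 loci with one plain gene ID, 14290 matched RefSeq's goat genes (assembly ARS1.2), which gave symbols only, and loci of one gene were summed. Loci whose gene ID was joined to a miRNA entry were left out. SPRING1, UFD1 and G6PC1 were searched under an older symbol. Log2 ratios were taken from the deposited FPKM with no pseudocount, for genes above 0 in both libraries. The members and lists were chosen with earlier results of these data known. Named genes are all members, the highest and lowest ratio per list and comparison among genes of at least 1 FPKM in both libraries, the most abundant of each list and the 3 nearest profiles of 3 members. One gene that this rule names is not reported here. Other list and marker genes were named after their values were seen. Alternatives were pseudocounts of 0.1 and 1, a minimum of 1 FPKM, a fold of 1.5, zeros set to 0.001, the highest locus in place of the sum, median centring, sums without the most abundant locus or (added later) the 100 most abundant loci, and exchanged peak and late columns. Fold counting and profile search were tested on simulated data. Python 3.11.15, numpy 2.4.6, pandas 2.3.3 and matplotlib 3.10.9 were used.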

Additional observations from a re-analysis of the deposited data

How the results depend on the processing

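No paired analysis was possible because there is a single pooled library for each stage, and for the same reason leaving out a replicate could not be done. Depth per locus is unknown and limits THRSP most. With 1 FPKM added to both values, the regulators at least 2-fold apart went from 1 to 0 in peak over early, from 2 to 1 in late over early and from 2 to 1 in late over peak, and pathway genes between early and late from 12 to 6. A minimum of 1 FPKM in both libraries also left 6. A fold of 1.5 gave 68 pathway genes in peak over early and 31 in late over early lactation, as a lower limit must. Scaled without the most abundant locus, 1 regulator differed between peak and late lactation, because INSIG1 moved from 1.28 to 0.89. With the peak and late columns exchanged, 2 regulators and 12 pathway genes differed in peak over early and 1 and 32 in late over early, INSIG1 in late over early was -0.025, and the log2 ratios of late over peak turned to -1.28 for INSIG1 and 1.09 for NR1H3. Over the 15 regulator ratios and 7 settings other than the exchange, 30 of 105 values were equal and 75 moved, 6 crossed the 2-fold limit and 6 changed sign, all 6 of these at INSIG1 or INSIG2 under another scaling or centring. The cause of these moves was not tested beyond each setting's construction.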
